A study of Rattus norvegicus with 6 samples.

Results

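The genes described here are 10 genes of blood vessel signaling in rat chondrocytes. They are the VEGF ligands Vegfa, Vegfb, Vegfc and Pgf, the VEGF receptor Flt1, the co-receptors Nrp1 and Nrp2, the endothelin ligand Edn1 with its receptor Ednra, and the angiopoietin Angpt1. They were chosen by gene symbol from the 18420 genes of the deposited table, with the estimated counts of the same 6 libraries and the results of the same comparison already known. Their fold changes and p-values are therefore a description of those counts and no independent support for a change. All 10 passed the filter on low counts that 13250 genes passed.

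VEGF ligands are secreted proteins that signal through receptor tyrosine kinases. Flt1 binds VEGF-A, VEGF-B and placental growth factor (the product of Pgf), holds VEGF-A tightly while signaling weakly, and is also made as a soluble form that traps ligand. Kdr is the main signaling receptor for VEGF-A, Flt4 that for VEGF-C and VEGF-D, and the neuropilins Nrp1 and Nrp2 bind both VEGF ligands and class 3 semaphorins. Endothelin-1, the product of Edn1, is a vasoconstrictor peptide that acts through the G protein-coupled receptors Ednra and Ednrb. Healthy articular cartilage has no blood vessels, and vessel invasion and VEGF production by chondrocytes are known features of osteoarthritis.

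The question of the study was what a lysate of fat-derived cells does to inflamed chondrocytes. Primary chondrocytes of wild-type male Sprague-Dawley rats, taken from knee and hip cartilage and used at the third passage, all received TNF-α, an inflammatory cytokine, at 10 ng/mL for 6 h. The 3 libraries of the TNF-α group came from cells labelled 6 h. The 3 libraries of the TNF-α+NFL group came from cells that were then kept with NFL for another 24 h and are labelled 30 h. NFL (Nanofat lysate) is what is released when stromal vascular cells of rat abdominal fat are frozen and thawed. NFL and the later harvest cannot be told apart in this design, and cells without TNF-α were not analysed here. Every direction below follows the deposited labels. No gene was targeted in the study, so no engineered change is there to check those labels, and the column headings of the study's supplementary fold-change table can be read as giving the groups the other way round. The study also measured genes by qPCR in chondrocytes with and without NFL, whose outcome is not restated here, and those that could be tested are given as the labels have them, chosen after their values had been seen. Mmp13, a collagenase, was lower with NFL added (-0.31 on the log2 scale, adjusted p = 0.0167, edgeR's quasi-likelihood test), a call that remained only without TNF-α replicate 3 when each library was left out (adjusted p up to 0.175 in the other fits). The log2 fold change was 0.23 for Col2a1 (type II collagen), with no overlap of the groups and an adjusted p of 0.217 in edgeR's quasi-likelihood test. It was 0.09 for Acan, 0.05 for Sox9, 0.06 for Il6, -0.17 for Adamts5 and -0.01 for Tgfbr2, none of which passed that test. These values moved with single libraries. Without TNF-α replicate 1 they were 0.190, 0.138, -0.006, -0.038 and 0.023 in the same order. Leaving out other libraries took them as far as 0.016 for Acan, -0.018 for Sox9, 0.175 for Il6, -0.241 for Adamts5 and -0.029 for Tgfbr2. The study's text calls the libraries of a group independent biological replicates, while the labels do not say whether they came from separate cultures or animals. The p-values measure the spread between these libraries.

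Poly(A) RNA was read as single-end 50-base reads, and each library held between 19344893 and 19725135 estimated counts. The values are given as CPM, which is the estimated count scaled to library size (normalized count, with TMM factors) and compares 1 gene between libraries, or as the FPKM deposited by the authors, which is also scaled to transcript length and compares genes with each other. Of the chondrocyte markers, Prg4 (lubricin) lay between 495 and 657 FPKM and Col11a1 (a cartilage collagen chain) between 209.81 and 265.12 FPKM. The defining markers were far lower, with Col2a1 between 3.69 and 4.8 FPKM, Acan (aggrecan) between 2.34 and 3.04 FPKM and Sox9 (the chondrocyte transcription factor) between 2.05 and 2.55 FPKM. In TNF-α replicate 1 the macrophage genes Csf1r, Tyrobp and Lyz2 had 40, 11 and 14.9 estimated counts, while no other library had more than 7 counts of any of them. Where a call changed without that library it is given with and without it, as are some of the fold changes that moved.

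The 10 genes spanned a wide range of abundance. Mean FPKM over the 6 libraries ran from 0.712 for Flt1 to 125 for Nrp2, a 175-fold range. Nrp2 was above 95% of the tested genes and Angpt1, with 112 FPKM, above 94.4%. Vegfb followed with 66.5 FPKM, then Edn1 with 37.3 and Vegfa with 36.7 FPKM. Nrp1 had a mean of 15.6 FPKM, Vegfc 8.68, Pgf 2.45 and Ednra 1.58 FPKM. Flt1 lay above only 10.2% of the tested genes. The ranges over libraries of neighbours in this order did not overlap, except for 2 pairs. Nrp2 and Angpt1 overlapped in range, although Nrp2 was the higher in 6 of 6 libraries, with a ratio of 1.02 to 1.2. Edn1 and Vegfa could not be ordered, since Edn1 was the higher in 3 of 6 libraries, with a ratio of 0.901 to 1.13. The receptors Flt1 and Ednra were thus the 2 lowest on the FPKM scale, with the ligand Pgf next to them.

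**Figure D1:**
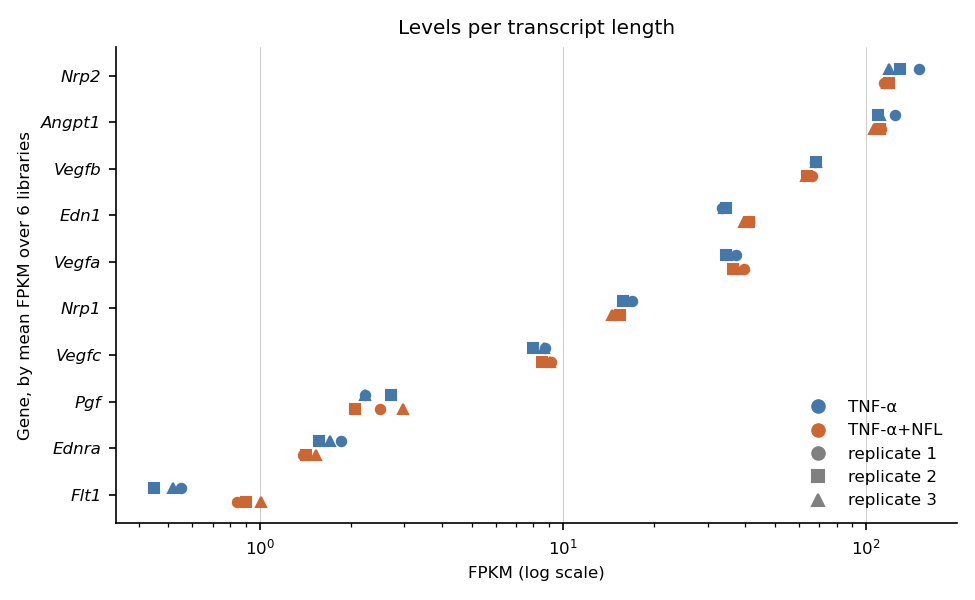
FPKM of the 10 genes (log axis), 1 point per library, for the TNF-α group (n = 3) and the TNF-α+NFL group (n = 3), with genes in the order of their mean. Nrp2 (mean 125 FPKM) and Angpt1 (112 FPKM) are at the high end and Flt1 (0.712 FPKM) at the low end, and Flt1 is the gene with the widest relative gap between the groups.

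Between the groups, 2 of the 10 genes were higher in the TNF-α+NFL group and none was lower at an adjusted p under 0.05 (edgeR's quasi-likelihood test, Benjamini-Hochberg adjusted over 13250 genes). Flt1 was 1.68-fold and Edn1 1.18-fold higher. Over all tested genes 0.611% passed that test, 0.408% higher and 0.204% lower. At an unadjusted p under 0.05 the count was 5 genes, with Flt1 and Edn1 higher and Nrp1, Nrp2 and Ednra lower, beside 11.1% of all tested genes. The groups did not overlap in 5 genes, Flt1 and Edn1 higher and Vegfb, Nrp1 and Nrp2 lower, beside 16.8% of all tested genes. Since the genes were chosen with this comparison in view, nothing is read from these shares. The median log2 fold change of the 10 genes was 0.01, with 5 positive and 5 negative, and that of all tested genes was -0.0035.

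**Figure D2:**
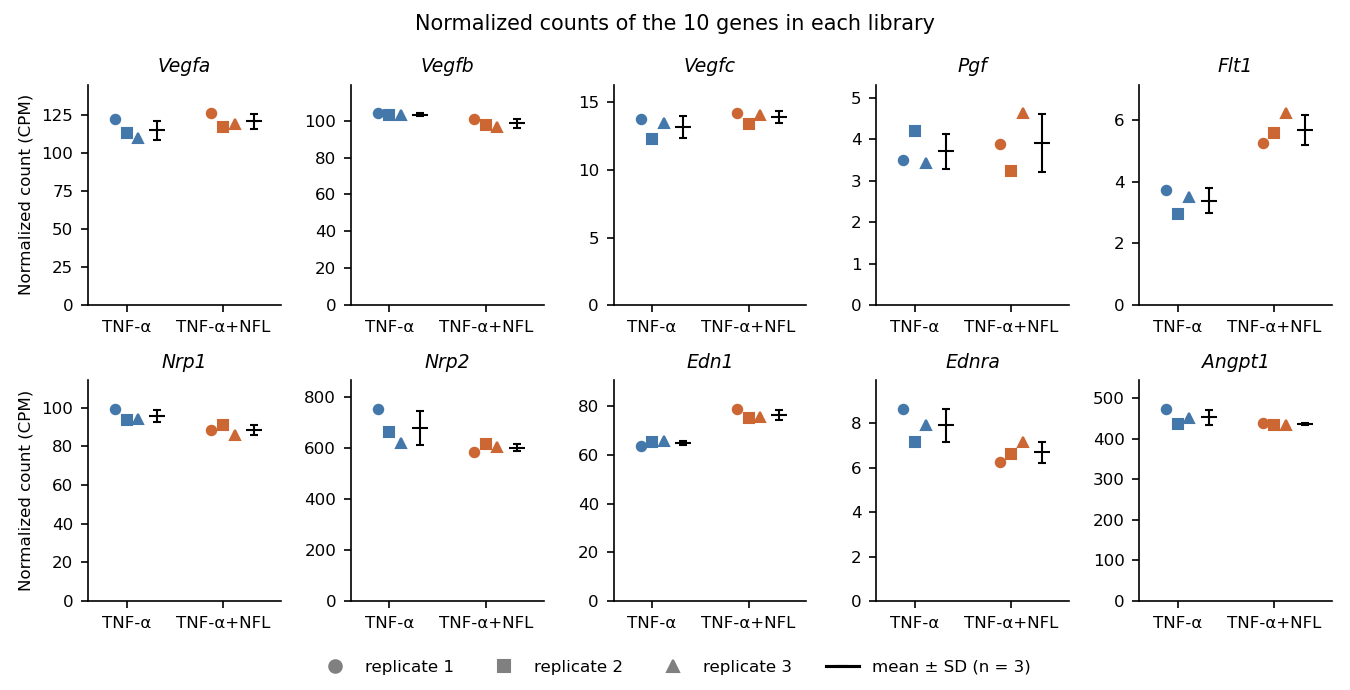
CPM of each of the 10 genes in the 3 TNF-α and 3 TNF-α+NFL libraries, 1 point per library with the group mean ± SD (n = 3), each panel with its own axis from 0. Flt1 (2.94 to 3.72 against 5.26 to 6.21 CPM) and Edn1 (63.8 to 65.6 against 75.3 to 78.9 CPM) have groups that lie apart, while Vegfa, Vegfc, Pgf, Ednra and Angpt1 overlap.

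Among the VEGF ligands, none of the 4 passed the test. Vegfa, which encodes the principal growth factor for blood vessels, had 122, 113 and 110 CPM in TNF-α replicates 1, 2 and 3 and 126, 117 and 119 CPM in TNF-α+NFL replicates 1, 2 and 3, an order kept in every list of values below. The groups overlapped, and the log2 fold change of 0.07 ± 0.05 (SE) had a 95% interval from -0.030 to 0.175 (adjusted p = 0.637, edgeR's quasi-likelihood test). It was 0.117 without TNF-α replicate 1 (adjusted p = 0.0884 in edgeR's quasi-likelihood test), 0.046 when TNF-α replicate 3 was left out, and 0.043 when TNF-α+NFL replicate 1 was. Vegfb, whose product binds Flt1 and not Kdr, had 104, 103 and 103 CPM in the TNF-α group and 101, 97.9 and 96.6 CPM in the TNF-α+NFL group. All 3 TNF-α libraries were above all 3 TNF-α+NFL libraries, but the log2 fold change was only -0.07 ± 0.04 (SE), with an interval from -0.16 to 0.01 (adjusted p = 0.547, edgeR's quasi-likelihood test). The TNF-α replicates of Vegfb differed by an SD of 0.0715% of their mean, where counting alone gives 2.22%, so the spread of these 3 values understates the error.

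Vegfc, best known as a growth factor for lymphatic vessels, had 13.8, 12.3 and 13.5 CPM in the TNF-α group and 14.2, 13.4 and 14.1 CPM in the TNF-α+NFL group. Its groups overlapped and its log2 fold change was 0.07 (95% interval -0.09 to 0.24), or 0.028 without TNF-α replicate 2. Pgf had 3.51, 4.2 and 3.44 CPM in the TNF-α group and 3.88, 3.23 and 4.63 CPM in the TNF-α+NFL group. The highest and the lowest Pgf values were both in the TNF-α+NFL group, and the interval of its log2 fold change, from -0.285 to 0.434, leaves a change of either sign within reach at 63 to 91 estimated counts per library. The sign of Pgf turned, to a log2 fold change of -0.06, without TNF-α+NFL replicate 3. The other ligand of the family, Vegfd, had a log2 fold change of 0.115 (adjusted p = 0.29, edgeR's quasi-likelihood test), and passed only without TNF-α replicate 1 (0.13, adjusted p = 0.04 by the same test).

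Flt1 was the least abundant of the 10 genes and had the largest log2 fold change of them. It had 71, 58 and 69 estimated counts in the TNF-α group and 103, 109 and 122 in the TNF-α+NFL group. Each TNF-α+NFL library was above each TNF-α library. In CPM the means were 3.38 ± 0.402 (SD, n = 3) and 5.68 ± 0.484 (SD, n = 3), a log2 fold change of 0.75 ± 0.14 (SE), or 1.68-fold with a 95% interval from 1.37 to 2.07 (adjusted p = 0.0306, edgeR's quasi-likelihood test, Benjamini-Hochberg adjusted). The exact two-sided permutation test over the 6 libraries gave p = 0.10, the smallest that 3 against 3 allows. The SD between replicates was 11.9% of the mean in the TNF-α group and 8.51% in the TNF-α+NFL group, close to the 12.3% and 9.48% that counting alone gives at this depth. Flt1 ranked second in size of log2 fold change among the 81 genes past the threshold and 52nd of all tested genes by p. The gene-level estimate adds up all transcripts of Flt1, so the membrane receptor and its soluble form are not separated.

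The call on Flt1 depended on single libraries although its direction did not. Leaving out each library in turn gave log2 fold changes from 0.66 to 0.82. The adjusted p stayed under 0.05 only without TNF-α replicate 1 (0.00225, edgeR's quasi-likelihood test). It was 0.172 without TNF-α replicate 2, 0.0764 without TNF-α replicate 3, 0.104 without TNF-α+NFL replicate 1, 0.17 without TNF-α+NFL replicate 2 and 0.179 without TNF-α+NFL replicate 3. The fit without TNF-α replicate 1 called 930 of 13409 genes, or 6.94%. The other fits that left out 1 library called between 5 and 41 genes in all, against 81 with every library. The loss of calls was thus not particular to Flt1. Neither the call on Flt1 nor that on Edn1 remained in limma on FPKM. With a pseudocount of 0.1 the log2 fold changes were 0.745 for Flt1 (adjusted p = 0.156) and 0.256 for Edn1 (adjusted p = 0.0844), close to those of the count test. With a pseudocount of 1 they were 0.347 (adjusted p = 0.131) and 0.249 (adjusted p = 0.0889) in limma, a scale on which the change of low genes is understated.

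The other VEGF receptors could not take part in a like comparison or did not pass the test. Kdr was listed at 0 in all 6 libraries, which allows up to 3 counts in each. Flt4 lay between 1.31 and 1.73 FPKM, with a log2 fold change of -0.21 (adjusted p = 0.553, edgeR's quasi-likelihood test). On the FPKM scale Vegfa exceeded Flt1 by 67.5, 77 and 67 times in the TNF-α libraries and by 47, 40.5 and 37.1 times in the TNF-α+NFL libraries. The ratio of ligand to receptor averaged 70.5 ± 5.63 (SD, n = 3) with TNF-α alone and 41.6 ± 5.02 (SD, n = 3) with NFL added.

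The co-receptors had lower means in the TNF-α+NFL group and did not pass the test. Nrp1 had 99.3, 93.4 and 94.3 CPM in the TNF-α group and 88.7, 91.2 and 85.8 CPM in the TNF-α+NFL group. The groups did not overlap, and the log2 fold change was -0.11 ± 0.04 (SE), with an unadjusted p of 0.0256 and an adjusted p of 0.353 (edgeR's quasi-likelihood test). Nrp2 had 751, 662 and 618 CPM in the TNF-α group and 585, 613 and 604 CPM in the TNF-α+NFL group. Here too the groups did not overlap, but the gap between the lowest TNF-α library and the highest TNF-α+NFL library was small and TNF-α replicate 1 stood well above the rest. The log2 fold change of Nrp2 was -0.17 ± 0.06 (SE; adjusted p = 0.337, edgeR's quasi-likelihood test) and shrank to -0.09 without TNF-α replicate 1. The SD of Nrp2 was 10% of its mean in the TNF-α group and 2.36% in the TNF-α+NFL group, where counting gives under 1%. The ratio of Nrp2 to Nrp1 in FPKM was 8.19 ± 0.67 (SD, n = 3) with TNF-α alone and 7.84 ± 0.204 (SD, n = 3) with NFL added.

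Edn1 was the other gene that passed the test, with a small and even difference. It had 1219, 1290 and 1297 estimated counts in the TNF-α group and 1545, 1471 and 1485 in the TNF-α+NFL group. Each TNF-α+NFL library was above each TNF-α library. The means were 64.9 ± 0.948 CPM (SD, n = 3) and 76.6 ± 1.98 CPM (SD, n = 3), a log2 fold change of 0.24 ± 0.04 (SE), or 1.18-fold with a 95% interval from 1.11 to 1.26 (adjusted p = 0.0239, edgeR's quasi-likelihood test, Benjamini-Hochberg adjusted). The exact two-sided permutation test gave p = 0.10, again the smallest possible. By size Edn1 was 58th among the 81 genes past the threshold. Leaving out each library in turn kept its log2 fold change between 0.22 and 0.25. The call, however, remained only without TNF-α replicate 1 (adjusted p = 0.00227, edgeR's quasi-likelihood test). The adjusted p was 0.143 without TNF-α replicate 2, 0.0642 without TNF-α replicate 3, 0.219 without TNF-α+NFL replicate 1, 0.142 without TNF-α+NFL replicate 2 and 0.123 without TNF-α+NFL replicate 3.

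Ednra, the receptor through which endothelin-1 contracts smooth muscle, had 165, 141 and 157 estimated counts in the TNF-α group and 123, 129 and 141 in the TNF-α+NFL group. The lowest TNF-α library and the highest TNF-α+NFL library met, so the groups overlapped. Its log2 fold change of -0.24 ± 0.11 (SE) was of about the size of that of Edn1 with the opposite sign, but did not pass the test (unadjusted p = 0.0446, adjusted p = 0.438, edgeR's quasi-likelihood test). The FPKM ratio of Edn1 to Ednra was 18, 22 and 19.8 in the TNF-α libraries and 29.6, 28.9 and 25.6 in the TNF-α+NFL libraries. These 2 groups of ratios did not overlap, with means of 19.9 ± 2.01 (SD, n = 3) and 28.1 ± 2.11 (SD, n = 3). Edn1 alone already separated the groups. No share over all genes was computed for such ratios, so nothing is read from their separation.

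Angpt1, a ligand of the receptor Tek that steadies vessel walls, had 473, 436 and 450 CPM in the TNF-α group and 439, 435 and 435 CPM in the TNF-α+NFL group. The groups overlapped, and the log2 fold change was -0.05, with a 95% interval from -0.14 to 0.03 (adjusted p = 0.677, edgeR's quasi-likelihood test). Without TNF-α replicate 1, the highest of the 6 libraries, it was -0.02. Its receptor Tek had between 2.1 and 6.36 estimated counts per library, too few to test.

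**Figure D3:**
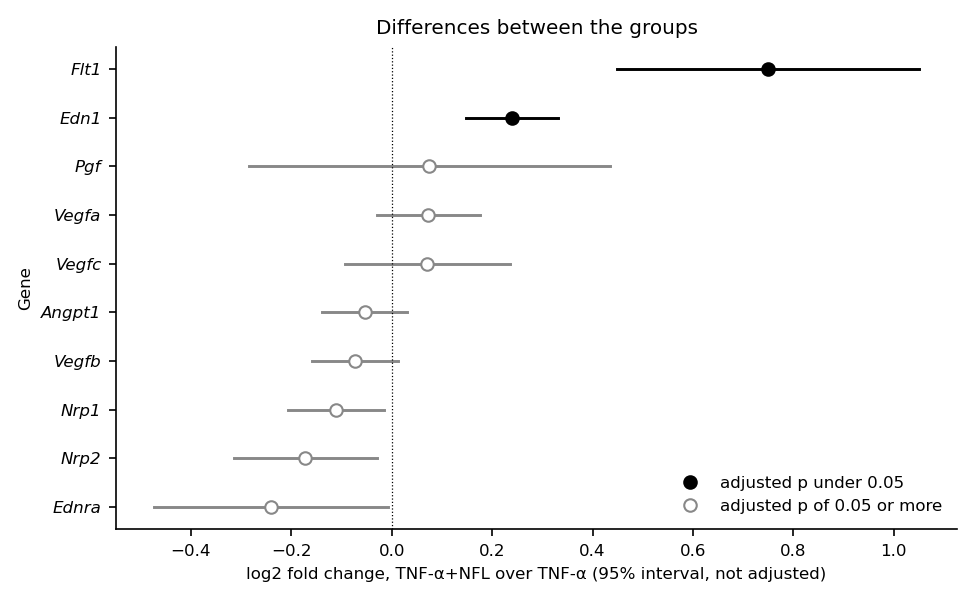
Log2 fold change of each of the 10 genes (TNF-α+NFL minus TNF-α, n = 3 each) with its 95% interval, from edgeR's quasi-likelihood fit over all genes. Flt1 (0.75) and Edn1 (0.24) passed an adjusted p of 0.05, and the intervals of Nrp1, Nrp2 and Ednra lie below 0 although these genes did not pass it.

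The sequences before the annotated starts of Flt1 and Edn1 are shown because these were the 2 genes that passed the test. They are the 250 bases before the start in RefSeq on the GRCr8 build, which is not the build listed in the submitters' processing notes, and are written 5′ to 3′ on the strand of the gene. Flt1 lies on the plus strand (chr12:12333180-12333429) and Edn1 on the minus strand (chr17:22666688-22666937). Capitals mark the motifs that were found.
Flt1: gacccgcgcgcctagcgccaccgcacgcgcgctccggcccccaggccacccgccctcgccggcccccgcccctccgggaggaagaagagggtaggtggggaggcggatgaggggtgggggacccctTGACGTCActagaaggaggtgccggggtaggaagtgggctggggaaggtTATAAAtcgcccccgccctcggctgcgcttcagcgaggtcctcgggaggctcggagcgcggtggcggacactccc
Edn1: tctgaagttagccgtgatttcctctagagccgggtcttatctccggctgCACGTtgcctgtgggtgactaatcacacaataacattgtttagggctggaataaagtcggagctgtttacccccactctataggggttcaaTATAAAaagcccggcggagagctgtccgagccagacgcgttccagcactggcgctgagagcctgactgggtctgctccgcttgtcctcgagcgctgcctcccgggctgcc
The motifs were searched on both strands and were chosen after the values had been seen. They were TATAAA (the TATA box), TGACGTCA (the cAMP response element), TGANTCA (the AP-1 site) and ACGTG (the core bound by hypoxia-inducible factors). Counted back from the start, with -1 as the last base before it, the Flt1 window held TGACGTCA at -124 to -117 and TATAAA at -75 to -70, and 73.2% of its bases were G or C. The Edn1 window held ACGTG at -201 to -197, on the minus strand of the window and so printed as CACGT, and TATAAA at -110 to -105, with 56.4% G or C. Of 33469 promoters of this length, 12.9% held TATAAA, 1.59% TGACGTCA, 6.34% TGANTCA and 16.6% ACGTG. The windows of 9 of the 10 genes were in the table, and TATAAA was in those of Flt1 and Edn1 alone among them. No window of the 10 genes that was in the table held TGANTCA. Only exact matches to these patterns were searched, so variants of a motif were not counted. A match describes these letters and is not a site.

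The remaining genes of the same pathways were counted from lists written from general knowledge, leaving out the 10 genes, with medians to be read against -0.0035 over all tested genes. Each count is also given without TNF-α replicate 1, where 6.94% of all genes were called, and the genes that passed only there were named after their values had been seen. The list medians moved with single libraries when each library was left out. They ran from 0.0463 to 0.1409 for the endothelin system and -0.0643 to 0.0024 for the hypoxia-inducible factors and their regulators. For the neuropilin partners the range was -0.0082 to 0.0380, and for VEGF receptor signaling -0.0001 to 0.0257. For endothelin receptor signaling it was -0.0043 to 0.0394, and for the angiogenesis inhibitors and matrix binders 0.0804 to 0.1203. In the endothelin system none of 4 tested genes passed the test, nor did any at an unadjusted p under 0.05, and the median log2 fold change was 0.10. Ednrb, the other endothelin receptor, was its highest gene (0.13, adjusted p = 0.81, edgeR's quasi-likelihood test) and Mme, which degrades endothelin, its lowest (-0.02). The count was 1 without TNF-α replicate 1, Ece1, the enzyme that releases active endothelin (0.15, adjusted p = 0.0116, edgeR's quasi-likelihood test). Of the angiopoietin and Tie genes 2 were tested, Angpt4 (-0.02) and Ptprb, a phosphatase of endothelium (0.47, adjusted p = 0.652), and neither passed edgeR's quasi-likelihood test with or without that library. Among 12 tested partners of the neuropilins (semaphorins, plexins and an adaptor) none passed the test and 1 had an unadjusted p under 0.05, with a median of 0.01 and a range from -0.06 for Plxnd1 to 0.48 for Plxna4 (adjusted p = 0.359, edgeR's quasi-likelihood test). None of these passed without TNF-α replicate 1 either, with 2 at an unadjusted p under 0.05.

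Of 42 tested genes of VEGF receptor signaling, 1 was lower and none higher, with a median log2 fold change of 0.01. The lower gene was Ptgs2, the inducible cyclooxygenase that makes prostaglandin precursors. It had 74.4, 67.3 and 71.9 CPM in the TNF-α group and 57.2, 59.1 and 62.3 CPM in the TNF-α+NFL group, without overlap, and a log2 fold change of -0.26 ± 0.05 (SE; adjusted p = 0.0393, edgeR's quasi-likelihood test). Its call remained without TNF-α replicate 1 and was lost on leaving out any other library, with adjusted p up to 0.307 by the same test, and it was also lost in limma on FPKM (0.168 and 0.16 with pseudocounts of 1 and 0.1). Nfatc2, a calcium-responsive transcription factor, had the highest log2 fold change of that list (0.35, adjusted p = 0.696, edgeR's quasi-likelihood test). Without TNF-α replicate 1 the list held 3 lower genes and 1 higher gene, with a median of 0.03. They were Ptgs2 (-0.23), the kinase gene Map2k2 (-0.16) and the small GTPase gene Hras (-0.19), and the heat shock protein gene Hspb1 (0.16). The list count was 0 in each of the other fits that left out 1 library.

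Of 17 tested genes of endothelin receptor signaling, 1 was higher and none lower, with a median of 0.02. The higher gene was Rock2, a kinase activated by RhoA that promotes actomyosin contraction. It had 380, 355 and 363 CPM in the TNF-α group and 446, 459 and 439 CPM in the TNF-α+NFL group, without overlap, and a log2 fold change of 0.29 ± 0.04 (SE; adjusted p = 0.00556, edgeR's quasi-likelihood test). Its call was lost without TNF-α replicate 2 (adjusted p = 0.0523), TNF-α+NFL replicate 1 (0.074) or TNF-α+NFL replicate 2 (0.0655) by edgeR's quasi-likelihood test, and in limma on log2(FPKM + 1) (0.054). On leaving out TNF-α replicate 1 the list held 3 higher genes and none lower, Rock2 (0.32), Itpr1, a calcium release channel (0.30), and Rock1, the other kinase of that family (0.19). Plcb2, a phospholipase C with 6 to 14 estimated counts per library, had the lowest log2 fold change (-0.37, adjusted p = 0.791, edgeR's quasi-likelihood test).

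The list of hypoxia-inducible factors, which induce Vegfa in low oxygen, and of their regulators held 9 tested genes. None passed the test, and 2 were lower at an unadjusted p under 0.05. The log2 fold change was negative in 7 of 9, beside 6865 of 13250 tested genes, and the list median was -0.015. Egln3, an oxygen-sensing hydroxylase, was the lowest (-0.46, adjusted p = 0.077, edgeR's quasi-likelihood test) and Hif1an the highest (0.04). Without TNF-α replicate 1, Egln3 (-0.50, adjusted p = 0.0134) and the related Egln1 (-0.14, adjusted p = 0.0385) were lower in edgeR's quasi-likelihood test. The list of angiogenesis inhibitors and matrix binders held 12 tested genes, not all of which inhibit vessel growth. None passed the test, while 6 were higher and 1 lower at an unadjusted p under 0.05. Their median log2 fold change was 0.11, from -0.09 for Adamts1 (adjusted p = 0.433) to 0.19 for Thbs1, which encodes the inhibitor thrombospondin-1 (adjusted p = 0.223, edgeR's quasi-likelihood test). Without TNF-α replicate 1, 6 of the 12 were higher and none lower. They were Thbs1 (0.25), Thbs2 (0.16), Col18a1, the source of endostatin (0.19), Sparc (0.10), Ctgf (0.15) and Cyr61 (0.11). In the DESeq2 Wald test Thbs1 and Ctgf were higher, and Ctgf alone in that test without independent filtering and in edgeR with no filter on low counts. The count was 0 in each of the other fits that left out 1 library.

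**Figure D4:**
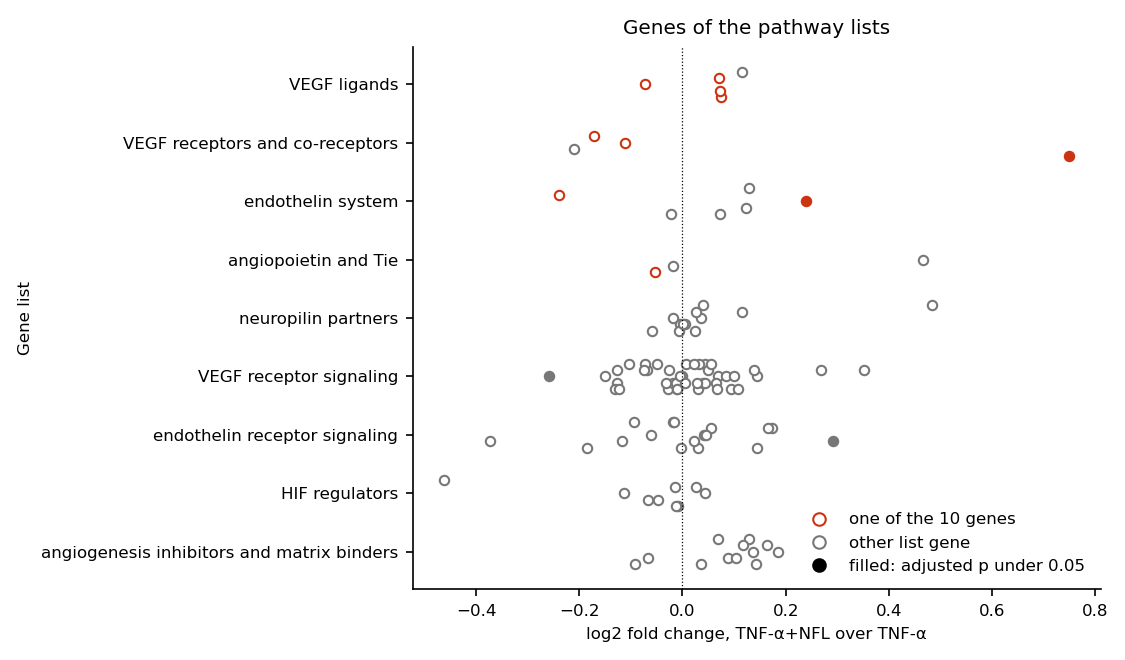
Log2 fold change (x axis, TNF-α+NFL over TNF-α, n = 3 each) of every tested gene of the pathway lists (rows), with the 10 genes in red, other genes in grey and filled points for an adjusted p under 0.05 in edgeR. Outside the 10 genes, Ptgs2 (-0.26) and Rock2 (0.29) are the filled points, and the genes of the VEGF receptor signaling and neuropilin lists lie on both sides of 0.

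Flt1 and Edn1 are highly expressed in endothelial cells, so markers of other cell types were set beside them. NFL was made from fat-derived cells by repeated freezing and thawing, and after a spin to remove fragments its supernatant, without living cells, was used. Of the 17 endothelial markers listed with a value, 6 could be tested, and none passed edgeR's quasi-likelihood test with or without TNF-α replicate 1, with 1 lower at an unadjusted p under 0.05. The defining markers were at or near 0: Kdr was listed at 0, Pecam1 had 0 to 4, Tek 2.1 to 6.36 and Tie1 0 to 2 estimated counts per library, and Cdh5 was not analysed here. The endothelial markers summed to between 50.5 and 53.4 FPKM in the TNF-α libraries and between 52.3 and 53.5 FPKM in the TNF-α+NFL libraries, most of it from Eng, which other cells also express.

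Some markers of pericytes and smooth muscle were higher together with Flt1 and Edn1, and others were not. Of 10 tested, 3 were higher in the TNF-α+NFL group and none lower, and at an unadjusted p under 0.05 the counts were 4 and 1. The list summed to between 1654.2 and 1784.7 FPKM in the TNF-α libraries and between 2027.9 and 2130.2 FPKM in the TNF-α+NFL libraries, most of it from Acta2. The 3 were Mcam, an adhesion molecule of vessel walls (log2 fold change 0.37), Myh11, smooth muscle myosin (0.29), and Acta2, smooth muscle actin (0.28), with adjusted p of 0.00556, 0.0415 and 0.01 in edgeR's quasi-likelihood test. On leaving out each library in turn, the call on Mcam was lost without TNF-α replicate 2, TNF-α+NFL replicate 1 or TNF-α+NFL replicate 2 (edgeR adjusted p up to 0.074). The call on Acta2 remained only without TNF-α replicate 1 or TNF-α replicate 3, and that on Myh11 only without TNF-α replicate 1, with edgeR adjusted p up to 0.128 and 0.261 in the other fits. In limma on FPKM none of the 3 passed with either pseudocount (adjusted p of 0.0503 and 0.054 for Mcam, 0.153 and 0.162 for Acta2, and 0.209 and 0.212 for Myh11). When TNF-α replicate 1 was left out, 5 of the 10 were higher and none lower, with Cnn1 (0.47) and Pdgfrb (0.14) added. Among the markers with a negative log2 fold change, Cspg4, a pericyte proteoglycan, had -0.24 without overlap of the groups (unadjusted p = 0.00643, adjusted p = 0.217, edgeR's quasi-likelihood test), Kcnj8 -0.24 and Des -0.13. Rgs5, a defining pericyte gene, had 0 to 2 estimated counts per library. Fewer cells of a type and less RNA per cell cannot be told apart in such bulk samples, and the part of these markers in the Flt1 and Edn1 results was not tested. None of 2 tested macrophage, 4 tested adipocyte and 15 tested chondrocyte markers passed edgeR's quasi-likelihood test. At an unadjusted p under 0.05, 1 macrophage marker was lower, no adipocyte marker passed and 2 chondrocyte markers, Col2a1 and Col11a1, were higher. Col11a1 just missed the threshold (log2 fold change 0.22, adjusted p = 0.052, edgeR's quasi-likelihood test). It passed under every other filter and scaling, in limma-voom, in both DESeq2 settings and without TNF-α replicate 1, and did not pass in limma on FPKM, with the replicate number as a block or in the other fits that left out 1 library. The macrophage marker Cd14 (-0.18) passed without TNF-α replicate 1. With TNF-α alone and with NFL added, the macrophage sum was 54.7 to 58 and 48.9 to 51 FPKM, the adipocyte sum 19.4 to 20.4 and 19.6 to 22.7 FPKM, and the chondrocyte sum 735 to 909 and 778 to 857 FPKM. Adipoq, the defining adipocyte gene, had 0 to 4 counts per library.

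The genes whose pattern over the 6 libraries was most like that of Flt1 and Edn1 were sought among 9095 genes with a mean of at least 10 CPM, by the root-mean-square distance between log2 CPM values scaled to the same mean and SD. The nearest to Flt1 were Wdfy1 (distance 0.0784 SD), Atad2 (0.083 SD) and Jag1, a Notch ligand (0.117 SD). Jag1 had a log2 fold change of 0.39 (adjusted p = 0.0224, edgeR's quasi-likelihood test), a call that remained only without TNF-α replicate 1 or TNF-α replicate 3 (up to 0.149 in the other fits that left out 1 library), while Wdfy1 (0.12) and Atad2 (0.14) did not pass. The nearest to Edn1 were Rffl (0.123 SD), Ipmk (0.123 SD) and Kctd12 (0.132 SD). Kctd12 had a log2 fold change of 0.34 (adjusted p = 0.00556, edgeR's quasi-likelihood test), a call lost without TNF-α replicate 2, TNF-α+NFL replicate 1 or TNF-α+NFL replicate 2 (up to 0.074), while Rffl (0.06) and Ipmk (0.13) did not pass. In limma on FPKM neither Jag1 (adjusted p of 0.173 and 0.174) nor Kctd12 (0.0947 with both pseudocounts) passed. With 6 libraries many genes share a pattern, and the likeness is a description.

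**Figure D5:**
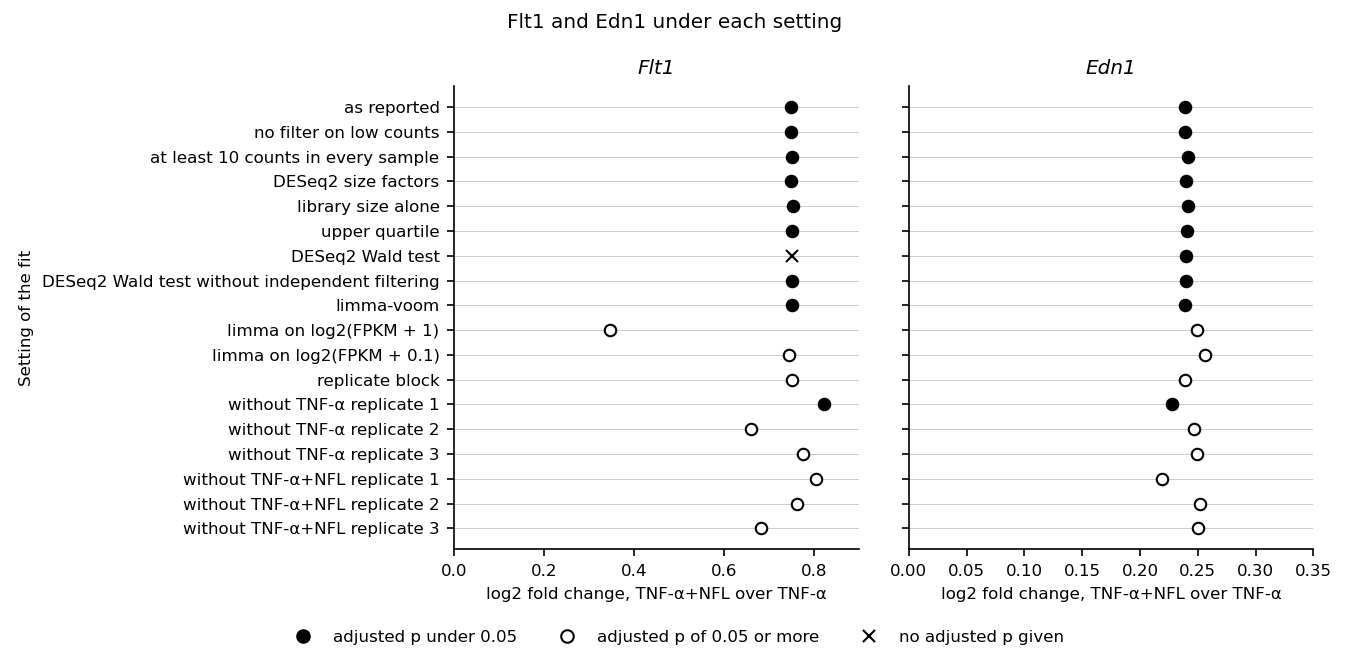
Log2 fold change of Flt1 and Edn1 as reported and under 17 alternative settings (other filters, scalings and tests, and leaving out each library), with filled points where the adjusted p was under 0.05, open points where it was not and a cross where DESeq2 gave none. Both genes are above 0 in all of them, Flt1 between 0.35 and 0.82 and Edn1 between 0.22 and 0.26, and the adjusted p was under 0.05 in 8 of 17 alternatives for Flt1 and 9 of 17 for Edn1.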

How the data were processed

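RNA-seq libraries of rat chondrocytes were compared, 3 of the TNF-α group and 3 of the TNF-α+NFL group. The authors deposited an estimated count per gene, which is not normalized and need not be whole (27.28 to 27.96% of genes per library were fractional), and beside it the FPKM and TPM values, scaled to transcript length and library. The submitters' processing notes list HISAT2 2.0.4, Bowtie2 2.2.5, RSEM 1.2.12 and the build Rnor_6.0 without their roles. RSEM-type estimates share reads between near-identical copies, so such genes are uncertain.

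After rounding, the estimated counts of the 13250 genes kept by filterByExpr were scaled by TMM and given to the two-sided robust quasi-likelihood test of edgeR 4.0.16 (R 4.3.3), with p-values adjusted by Benjamini-Hochberg and a threshold of 0.05. The SE was derived from the log2 fold change and its F statistic. The biological coefficient of variation was 6.39%. Between pairs of TNF-α libraries the spread against counting noise was 5.06 to 13.8, as a chi-square per degree of freedom. It was 2.78 to 3.17 between TNF-α+NFL libraries, while the fit used the same dispersion for both groups. Depth was alike in all libraries, the intervals of fold changes include the spread between libraries, and the floor of 3 counts given for a listed 0 covers counting error only. FPKM was used for levels between genes and, with a pseudocount of 1 or 0.1, in limma 3.58.1 as an alternative. TPM was not used for any test. DESeq2 1.42.0, limma-voom, other filters and scalings, other thresholds, the replicate number as a block and leaving out each library were the other alternatives. The DESeq2 test without independent filtering was chosen after seeing the data. The fit was tested on simulated data.

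The 10 genes and the gene lists were chosen with earlier results of these data known. The named genes are these 10, each list gene past the threshold, the highest and lowest gene of each pathway list, the 3 genes most like each of the 10 that passed, and defining markers; others are named as chosen later. Identifiers of 17068 of 18420 genes, and of all 10, matched RefSeq GRCr8.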

Additional observations from a re-analysis of the deposited data

How the results depend on the processing

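Of the 10 genes, 2 passed an adjusted p of 0.05 in edgeR's quasi-likelihood test, and so did 81 of all genes. The count of 2 was also found with a minimum of 10 counts in every library, no filter, DESeq2's size factors, library size alone, the upper quartile and limma-voom. All genes called were 132 without a filter, 148 in the DESeq2 Wald test and 125 in that test without independent filtering (added after the data were seen). In the DESeq2 Wald test 1 of the 10 genes passed, since independent filtering left Flt1 with no adjusted p, and 2 passed without that filtering (adjusted p = 0.0483 for Flt1 and 0.0209 for Edn1). In limma on FPKM, 0 of the 10 passed with either pseudocount, and 6 genes in all with a pseudocount of 1 and 13 with 0.1. At an unadjusted p under 0.05 limma gave 4 of the 10 with either pseudocount. Over all 13250 genes it gave 1289 with a pseudocount of 1 and 1278 with 0.1. In edgeR's quasi-likelihood test the counts at an adjusted p under 0.01 were 0 of the 10 and 23 in all. At an unadjusted p under 0.05 they were 5 and 1472 by that test.

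With the replicate block 0 of the 10 and 34 genes in all passed, with adjusted p of 0.0627 for Flt1 and 0.073 for Edn1 by edgeR. At an unadjusted p under 0.05 there were 4 of the 10, beside 1305 of 13250 genes, by the same test. The block also ended the calls on Ptgs2 (adjusted p = 0.0771), Myh11 (0.0617) and Mmp13 (0.0546). The labels do not say whether the replicate numbers pair the samples. The deviations of same-numbered libraries correlated at 0.0302, -0.0237 and 0.1. These low values show no strong shared deviation, but with 3 libraries per group they cannot decide whether the samples were paired.

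Leaving out each library gave between 0 and 2 of the 10, and between 5 genes in all (without TNF-α+NFL replicate 1) and 930 (without TNF-α replicate 1). In the fits with 0 of the 10, between 2 and 5 had an unadjusted p under 0.05 in edgeR. Over all genes 1026 to 1253 of 13400 to 13408 did so in these fits. Of the 10 genes Pgf alone changed sign, with log2 fold changes from -0.063 (without TNF-α+NFL replicate 3) to 0.196. The causes were not tested. Flt1 (58 to 122 counts per library) and Pgf (63 to 91) had the lowest counts of the 10 genes.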
